A study of Mus musculus with 5 samples.

Results

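Smooth muscle contractile genes encode the actin, myosin and actin-binding proteins with which a smooth muscle cell shortens and holds tension. The 10 genes described here, Acta2, Tagln, Myl9, Cnn1, Myh11, Cald1, Tpm1, Tpm2, Cnn2 and Actg2, were chosen by gene symbol from the 23441 rows of a count table, and all 10 had a row. The source was dissected mandibular tissue of mice at embryonic day 10.5, sequenced as 5 libraries of poly(A) RNA. The 3 control libraries had the genotype Yapf/f, Tazf/f on a 129SvEv background, with no Cre named, and the 2 dCKO libraries had Wnt1Cre together with the same floxed alleles on a background given as C57BL/6J x CBA/J; 129SvEv. Genotype and strain background therefore cannot be told apart. Wnt1Cre is active in the premigratory neural crest and its descendants, which form most arch mesenchyme. Endothelium, blood, epithelium and core mesoderm in the same tissue come from cells that the driver largely spares. The title of the study names Yap and Taz of the neural crest and smooth muscle, and its design compares mRNA levels between the genotypes.

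Smooth muscle genes are switched on by serum response factor (SRF), which binds DNA elements called CArG boxes together with coactivators of the myocardin family. Around the pharyngeal arch arteries, neural crest mesenchyme is a known source of smooth muscle. YAP and TAZ (the product of Wwtr1) act on DNA through TEAD factors, which are known to bind the MCAT element, also found near muscle genes. In the text below, restricted members are the 5 genes known mainly from smooth muscle, other muscle or myofibroblasts (Acta2, Tagln, Cnn1, Myh11 and Actg2). Broadly expressed members are the 5 that many non-muscle cells also use (Cald1, Tpm1, Tpm2, Cnn2 and Myl9).

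The bases just before the transcription start are shown for the 2 members that were higher in dCKO tissue and have an entry in RefSeq's promoter table (Acta2 and Myl9), for the member that was lower (Cald1, the start with a motif match) and for a broadly expressed member that was not called (Cnn2). Capitals mark matches to the CArG box (a pair of C, a core of A or T, a pair of G), to a CArG-like sequence (the same with 1 core base being G or C) or to the TEAD motif GGAATG. Each is written 5′ to 3′ on the gene's strand, in build GRCm38.p6, and covers 250 bases.
Acta2 (chr19:34255374-34255623, minus strand): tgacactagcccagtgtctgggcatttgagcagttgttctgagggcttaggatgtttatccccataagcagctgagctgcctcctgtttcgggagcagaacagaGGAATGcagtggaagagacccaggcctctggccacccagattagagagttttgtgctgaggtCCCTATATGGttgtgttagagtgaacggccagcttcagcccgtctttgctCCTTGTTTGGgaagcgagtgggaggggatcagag
Myl9 (chr2:156775214-156775463, plus strand): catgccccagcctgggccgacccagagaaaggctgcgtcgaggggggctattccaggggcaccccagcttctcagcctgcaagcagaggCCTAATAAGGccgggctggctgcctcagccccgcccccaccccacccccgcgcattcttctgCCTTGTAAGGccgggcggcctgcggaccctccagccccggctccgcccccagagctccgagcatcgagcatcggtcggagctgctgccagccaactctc
Cald1 (chr6:34598254-34598503, plus strand): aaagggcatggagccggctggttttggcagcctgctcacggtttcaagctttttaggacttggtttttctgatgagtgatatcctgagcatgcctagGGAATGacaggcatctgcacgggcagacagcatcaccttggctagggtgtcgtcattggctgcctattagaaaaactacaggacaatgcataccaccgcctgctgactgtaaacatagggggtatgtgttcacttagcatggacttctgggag
Cnn2 (chr10:79988350-79988599, plus strand): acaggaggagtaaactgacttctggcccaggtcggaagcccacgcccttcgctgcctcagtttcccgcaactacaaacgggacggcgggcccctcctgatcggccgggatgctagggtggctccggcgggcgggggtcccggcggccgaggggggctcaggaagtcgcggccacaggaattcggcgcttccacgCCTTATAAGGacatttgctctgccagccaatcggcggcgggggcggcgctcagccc
Of the 10 members, 7 matched the table, with 8 starts in all, Cald1 having 2. The motifs were searched on both strands, and no matches overlapped one another in these windows. A CArG box was found before Myl9 (161 to 152 bases before the start) and Cnn2 (56 to 47 bases), and 1.47% of all 32851 promoter windows of this length held one. A CArG-like sequence was found before Acta2, at 84 to 75 and at 34 to 25 bases, and before Myl9 at 99 to 90 bases, where 7.24% of all windows held one. The TEAD motif was found before Acta2 (146 to 141 bases), the first start of Cald1 (153 to 148 bases) and Tpm1 (56 to 51 bases), and 12.6% of all windows held it. Cnn1 and Tpm2 held none of these letters in their windows. A match is a description of the letters and not evidence of binding. Motifs were thus found before members that were higher, lower and not called alike.

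**Figure D1:**
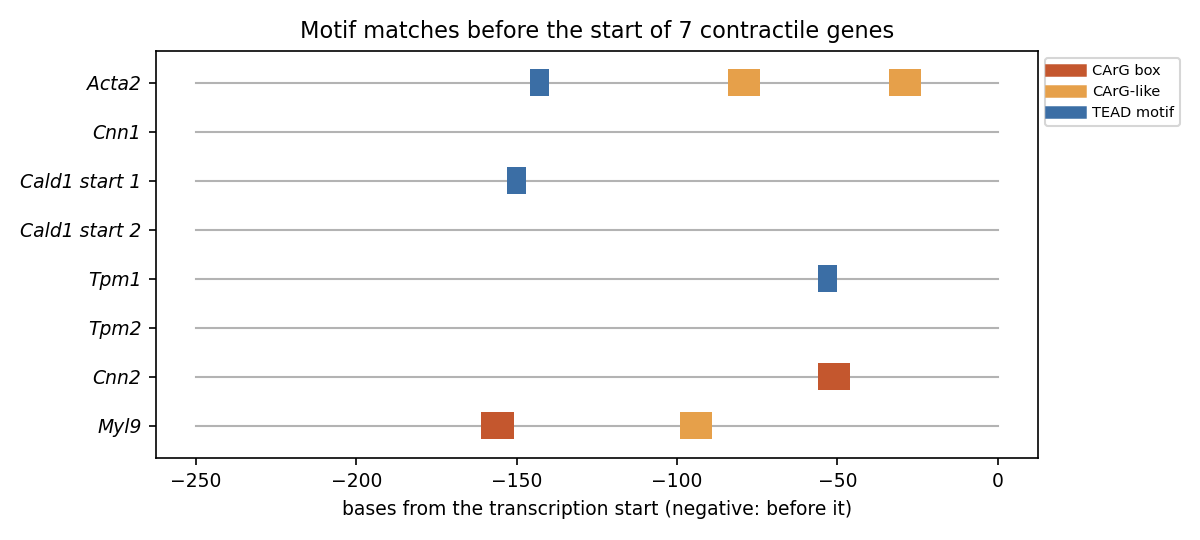
Positions of motif matches in the 250 bases before each of 8 transcription starts of 7 members, in bases from the start on the horizontal axis; colours give the motif. CArG boxes appear before Myl9 and Cnn2, CArG-like sequences before Acta2 and Myl9, and TEAD motifs before Acta2, Cald1 and Tpm1.

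Control libraries held 6491137 to 7439419 counts and the dCKO libraries 11346480 and 13298973. Levels are given as CPM, counts brought to a common library size and scaled for library composition. Yap1 measured 311.8, 475 and 512.1 CPM in control replicates 1, 2 and 3 and 175 and 170 CPM in dCKO replicates 1 and 2. Wwtr1 measured 38.4, 65.1 and 66.2 CPM in control and 22.7 and 22.8 CPM in dCKO libraries. For both targeted genes the groups did not overlap, with dCKO tissue below the controls. The 9 arch mesenchyme markers examined, among them Prrx1, Twist1, Msx1 and Hand2, were present in all 5 libraries, with summed levels of 2032 to 2163 CPM in control and 1858 to 1909 CPM in dCKO tissue. The 8 erythroid markers summed to 3405 to 4415 CPM in the controls and to 55550 and 79770 CPM in the dCKO libraries. Nothing in the labels says whether libraries came from separate embryos or pools, so p-values measure the spread between these libraries, part of which may be technical.

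The contractile genes split into a few that were higher in dCKO tissue, 1 that was lower and a larger number with no call. Tagln, Acta2 and Myl9 rose, Cald1 fell, Tpm1, Tpm2, Cnn2 and Myh11 did not pass the test, and Cnn1 and Actg2 had too few counts to be tested. The filter on low counts thus passed 8 of the 10. Of all 12710 genes tested, 6.42% were called at an edgeR adjusted p below 0.05, 5% as higher and 1.42% as lower in dCKO tissue (531 higher and 469 lower with scaling by total counts alone, against 636 and 180). Among the 8 tested contractile genes 3 were called higher and 1 lower, a count read with the reservation that these genes were chosen with earlier results of the same data known. Their median log2 fold change was 0.42, against −0.001 for all tested genes. For 4 of the 8 every dCKO library lay outside the range of the controls on one side, where 37.6% of all tested genes showed such a separation, 19% with dCKO above and 18.6% with dCKO below. In bulk tissue a change in the number of cells of a type and a change in RNA per cell cannot be told apart.

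Among the restricted members, Tagln and Acta2 were the best measured. Tagln encodes transgelin (SM22α), an actin-binding protein and one of the earliest markers of smooth muscle. It gave 18, 12 and 11 counts in control replicates 1, 2 and 3 and 149 and 329 counts in dCKO replicates 1 and 2, which is 2.37, 1.62 and 1.68 CPM against 13.8 and 25.2 CPM. Both dCKO libraries lay far above every control, and the second was 1.83 times the first. The means were 1.89 ± 0.41 CPM (SD, n = 3) and 19.5 ± 8.08 CPM (SD, n = 2), a difference of 3.355 on the log2 scale (SE 0.31, 95% interval 2.70 to 4.01, edgeR adjusted p = 2.67e-07). Exons of 2 genes on the opposite strand overlap Tagln in the GENCODE M21 annotation, Pcsk7 over 94 of its 1595 exon bases (5.89%) and Gm48529 over 877 bases (55%), and no source used here says whether the authors' counting used strand. Gm48529 had no row in the count table, so its level is not known here. Pcsk7, which encodes a proprotein convertase, measured 24.4, 27.5 and 29.5 CPM in control and 30.5 and 31.5 CPM in dCKO libraries. It was not called (log2 fold change 0.19, edgeR adjusted p = 0.508).

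Acta2 encodes smooth muscle α-actin, an early marker of smooth muscle and myofibroblasts that the embryonic heart also expresses. It gave 25, 21 and 21 counts in the controls and 125 and 242 in the dCKO libraries, which is 3.29, 2.84 and 3.21 CPM against 11.6 and 18.5 CPM. The 3 controls lay close together and below both dCKO libraries, which differed 1.6-fold between themselves. Acta2 rose from 3.11 ± 0.24 CPM (SD, n = 3) to 15.04 ± 4.93 CPM (SD, n = 2), a log2 fold change of 2.27 (SE 0.28, 95% interval 1.69 to 2.86, edgeR adjusted p = 1.35e-05). Only 0.352% of the 50-base words in its longest transcript occur unchanged in a transcript of another gene. Only exact matches were counted. Whether reads of other actin genes with sequencing errors were assigned to Acta2 was not tested. No exon of another gene overlaps it in GENCODE M21.

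The other restricted members had few counts, and none of them was called. Cnn1 encodes calponin 1, which binds actin and slows the myosin ATPase in differentiated smooth muscle. It had 2, 0 and 0 counts in control replicates 1, 2 and 3 (0.263, 0 and 0 CPM) and 4 and 8 in the dCKO libraries (0.37 and 0.613 CPM). Both dCKO values were above all controls, although a count of 0 allows up to 0.406 and 0.458 CPM in control replicates 2 and 3. Pooled over libraries, Cnn1 stood at 0.0928 CPM in control and 0.503 CPM in dCKO tissue, a ratio of 5.41 with an exact 95% interval of 1.21 to 49.8 that covers counting error only. When no filter on low counts was applied, its log2 fold change was 2.27 (SE 1.37, edgeR adjusted p = 0.422). The interval from counting alone thus lay above 1, while the test that includes the spread between libraries did not call it.

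Myh11 encodes the smooth muscle myosin heavy chain, the marker most restricted to mature smooth muscle. It gave 0, 12 and 2 counts in control replicates 1, 2 and 3 (0, 1.62 and 0.306 CPM) and 6 and 21 counts in dCKO replicates 1 and 2 (0.555 and 1.61 CPM). The groups overlapped, with control replicate 2 slightly above the higher dCKO library and a count of 0 in control replicate 1 allowing up to 0.394 CPM. Its log2 fold change of 0.76 (SE 0.84, 95% interval −1.01 to 2.53, edgeR adjusted p = 0.648) was not called, and the interval includes both 0 and the value of Acta2. Without dCKO replicate 2 the value was −0.21, and with limma-voom on all libraries it was 1.57 (adjusted p = 0.321). Actg2 encodes γ-smooth muscle actin of gut and other visceral muscle. It gave 3, 4 and 4 counts in control and 2 and 3 counts in dCKO libraries (0.394, 0.541 and 0.611 CPM against 0.185 and 0.23 CPM). Both dCKO values were below all controls, but the pooled ratio of 0.41 had an exact 95% interval of 0.112 to 1.28 for counting error. No difference in Actg2 was detectable at this depth.

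**Figure D2:**
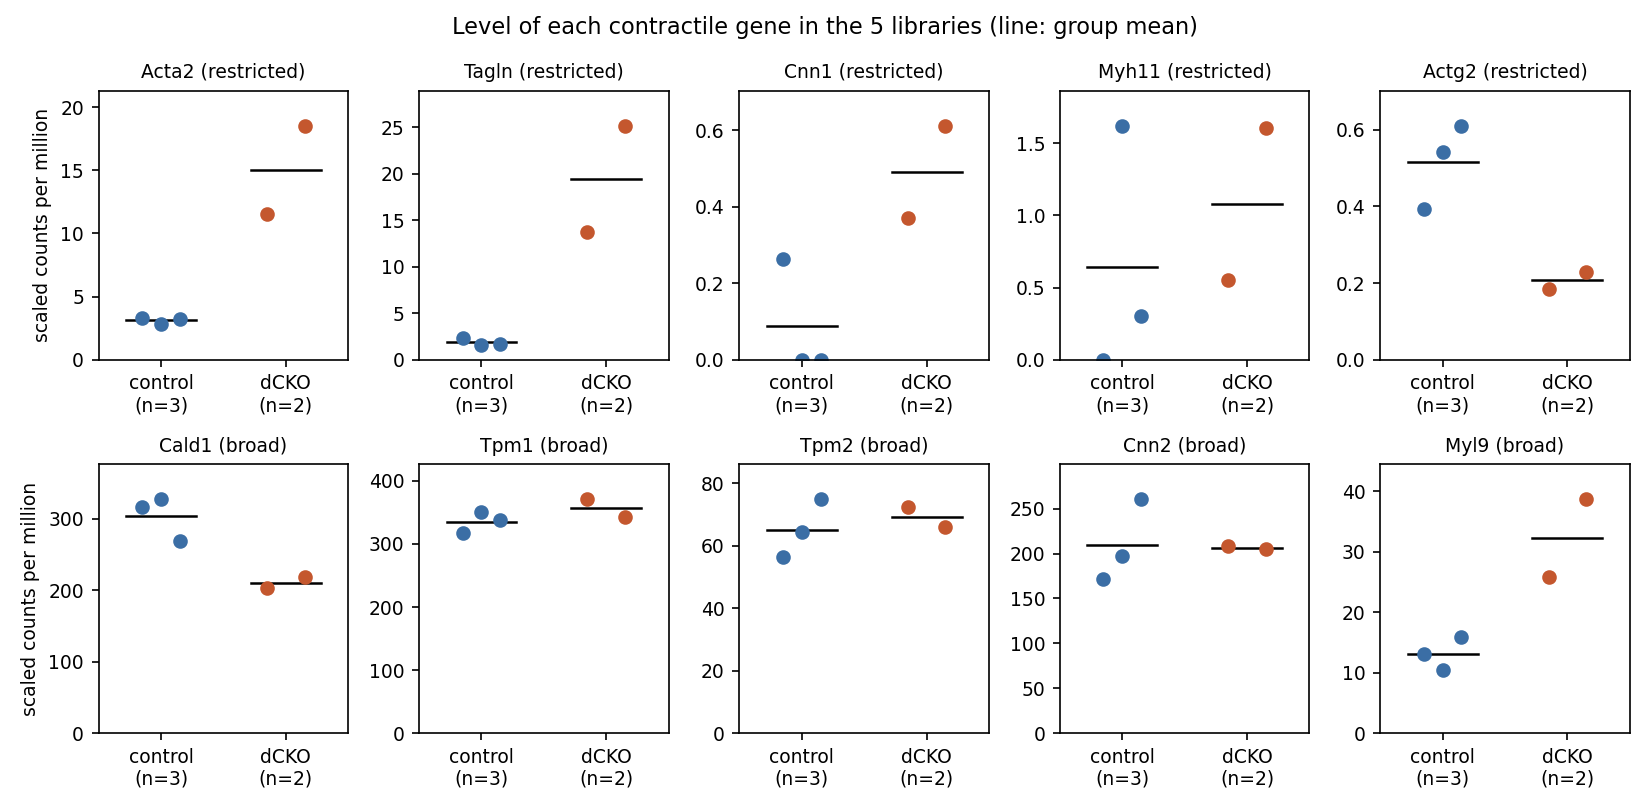
Scaled CPM of the 10 contractile genes, 1 panel a gene with its own vertical axis from 0; points are libraries and lines are group means, with 3 control and 2 dCKO libraries. For Tagln, Acta2 and Myl9 both dCKO points lie above all controls, for Cald1 below all controls, and Tpm1, Tpm2 and Cnn2 overlap.

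Among the broadly expressed members, Myl9 rose. Myl9 encodes a regulatory light chain of smooth muscle and non-muscle myosin II, whose phosphorylation starts contraction, and it is also abundant in platelets. It measured 13.1, 10.4 and 15.9 CPM in control replicates 1, 2 and 3 and 25.8 and 38.7 CPM in dCKO replicates 1 and 2. Both dCKO libraries were above every control, and the second was 1.5 times the first. The means of 13.2 ± 2.74 CPM (SD, n = 3) and 32.2 ± 9.11 CPM (SD, n = 2) gave a log2 fold change of 1.30 (SE 0.21, 95% interval 0.86 to 1.74, edgeR adjusted p = 3.48e-04).

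Cald1 was the member that fell. It encodes caldesmon, which blocks myosin binding to actin filaments, in a long form in smooth muscle and a shorter form in most other cells, and counts per gene do not separate these forms. Cald1 measured 317.2, 327.7 and 268.6 CPM in the controls and 202.8 and 218.3 CPM in the dCKO libraries, with every control above both dCKO libraries. Its log2 fold change was −0.53 (SE 0.12, 95% interval −0.79 to −0.28, edgeR adjusted p = 0.0104). This call was lost without control replicate 1, control replicate 2 or dCKO replicate 1 (edgeR adjusted p = 0.0755, 0.073 and 0.149), at log2 fold changes of −0.50, −0.48 and −0.47.

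The tropomyosins and calponin 2 were abundant and not called. Tpm1 and Tpm2 encode α- and β-tropomyosin, coiled coils that lie along actin filaments in muscle and non-muscle cells. Tpm1 measured 317.8, 350.1 and 338.1 CPM in control and 371.1 and 342.4 CPM in dCKO libraries, with a log2 fold change of 0.09 and a 95% interval of −0.14 to 0.32 (edgeR adjusted p = 0.691). Tpm2 measured 56.2, 64.3 and 74.9 CPM in control and 72.3 and 65.8 CPM in dCKO libraries, with a log2 fold change of 0.085 and an interval of −0.20 to 0.37 (edgeR adjusted p = 0.766), or −0.05 after each library's trend with GC content was removed. Control and dCKO libraries overlapped for both tropomyosins. Cnn2, a calponin of many non-muscle cells, ranged more among the controls (172.2, 197.1 and 260.6 CPM) than between the dCKO libraries (208 and 204.5 CPM). Its log2 fold change was −0.025 with an interval of −0.33 to 0.28 (edgeR adjusted p = 0.942), and 0.15 without control replicate 3.

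**Figure D3:**
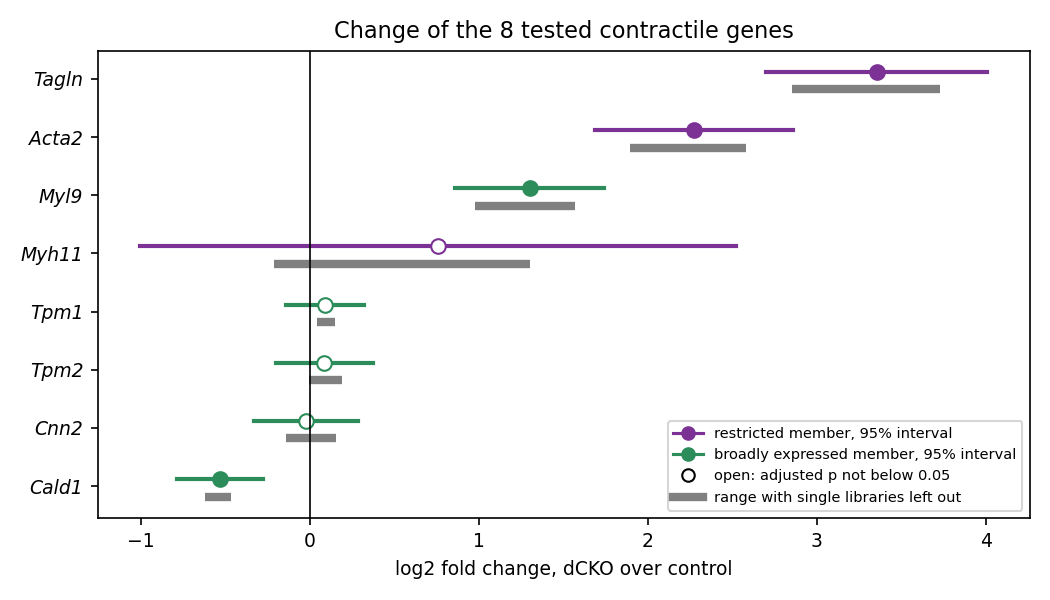
Log2 fold change of dCKO over control for the 8 tested contractile genes, with 95% intervals in colour and, in grey, the range when single libraries were left out; filled points had an edgeR adjusted p below 0.05. Tagln, Acta2 and Myl9 lie to the right of 0 at 3.355, 2.27 and 1.30, Cald1 to the left at −0.53, and the other 4 intervals include 0. The grey range of Myh11 lacks the omission of control replicate 2, where it did not pass the filter.

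Restricted and broadly expressed members stood at different levels. Per kilobase of the longest annotated transcript, Tpm1, Cnn2, Cald1 and Tpm2 averaged 116, 85.4, 63.7 and 29.9 CPM in the controls, followed by Myl9 at 11.7. Acta2 and Tagln stood at 1.53 and 1.19 CPM per kilobase, a small gap beside their spread (1.40 to 1.61 and 1.02 to 1.48), and Actg2, Myh11 and Cnn1 at 0.387, 0.0982 and 0.0368. In the dCKO libraries Tagln (8.63 and 15.8) and Acta2 (5.68 and 9.11 CPM per kilobase) stayed below Myl9 (22.9 and 34.3), and Tpm1, at 128.4 and 118.5, stayed the highest. Summed over the 5 restricted members, the scaled level was 6.31, 6.63 and 5.81 CPM in control replicates 1, 2 and 3 and 26.4 and 46.2 CPM in dCKO replicates 1 and 2. The 5 broadly expressed members summed to 876.6, 949.5 and 958 CPM in control and 880 and 869.6 CPM in dCKO libraries, where the groups overlapped. The restricted members thus took 0.602% to 0.714% of the summed level of the 10 genes in the controls and 2.92% and 5.04% in the dCKO libraries. Tagln and Acta2 made up most of the restricted sum, averaging 19.5 and 15.04 CPM of a mean of 36.3 CPM in dCKO libraries. The rise of the sum is therefore that of these genes and not shown for the other restricted members. With Myl9 counted as restricted, these shares were 1.78% to 2.25% and 5.76% and 9.26%. Of the 5 restricted members, 3 were tested and 2 of these called, both higher. Of the 5 broadly expressed members 1 was called higher and 1 lower, where 5% and 1.42% of all tested genes were so called.

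Each member except Cald1, for which no relative was listed, was set beside its close relatives of non-muscle or striated muscle cells. Of 12 non-muscle relatives, 3 rose, 2 fell and 7 were not called, with a median log2 fold change of −0.08. Of all tested genes 5% were called higher and 1.42% lower, and nothing is drawn from counts over so short a list. Tagln2, the transgelin of platelets, lymphocytes and many other cells, rose from 94.7, 75.3 and 67.1 CPM in the controls to 122.6 and 108.3 CPM in the dCKO libraries, by 0.54 on the log2 scale (SE 0.14, edgeR adjusted p = 0.0213). Per kilobase, Tagln made up 1.64% to 2.05% of the transgelin level in control and 8.75% and 16.1% in dCKO libraries. Cnn3, the acidic calponin of brain and many embryonic tissues, fell by 0.52 on the log2 scale, from 548.5, 546 and 486.4 to 336.5 and 396.3 CPM (SE 0.12, edgeR adjusted p = 0.00699). In the myosin light chains the genes went different ways. Myl12b, a regulatory light chain of non-muscle cells, fell by 0.64 on the log2 scale (109.8, 115.5 and 88.2 to 70.2 and 63.7 CPM, SE 0.13, edgeR adjusted p = 0.00411), while Myl9 rose. Myl12a did not pass the test, with 261.2, 277 and 245 CPM in control and 276.6 and 217.8 CPM in dCKO libraries. Per kilobase, Myl9 accounted for 4.48% to 7.75% of the level of these 3 light chain genes in control and 11.5% and 19.4% in dCKO libraries. Myl6, the essential light chain shared by smooth and non-muscle myosin, rose by 0.55 (SE 0.14, edgeR adjusted p = 0.0202), and Myh9, a non-muscle myosin heavy chain that is the main one of platelets, rose by 0.42 (SE 0.12, edgeR adjusted p = 0.0353). The actins of all cells, Actb and Actg1, and the heavy chain Myh10 were not called, at log2 fold changes of −0.04, −0.08 and −0.14. Acta2 and Actg2 together were a small share of the level of 6 actin genes per kilobase, at 0.0672% to 0.0807% in control and 0.225% and 0.382% in dCKO libraries. The calls of Tagln2 and Myh9 were lost after the trend with GC content was removed (edgeR adjusted p = 0.174 and 0.169), that of Myh9 also with scaling by total counts (0.0735). With single libraries left out, Tagln2 lost its call on omission of control replicate 2, control replicate 3 or one of the dCKO libraries (largest adjusted p 0.236), Myl6 on omission of control replicate 1, control replicate 2 or one of the dCKO libraries (0.131), Myh9 on that of control replicate 1, control replicate 2 or dCKO replicate 2 (0.274), Cnn3 on that of control replicate 1 or dCKO replicate 1 (0.17) and Myl12b on that of dCKO replicate 2 (0.102).

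**Figure D4:**
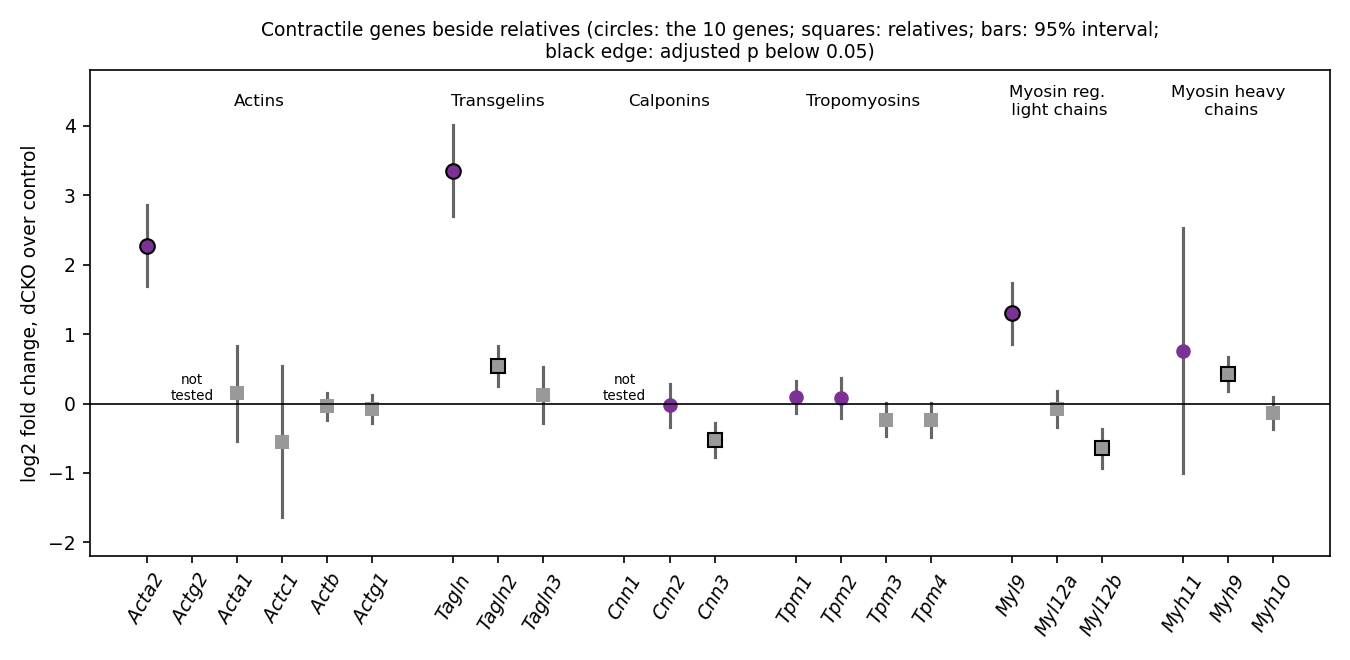
Log2 fold change of dCKO over control, with 95% intervals, for contractile genes (circles) beside their relatives (squares), by protein family; black edges mark an edgeR adjusted p below 0.05, and Actg2 and Cnn1 were not tested. Tagln, Acta2 and Myl9 lie above the genes of their own families, and Cnn3 and Myl12b are the relatives below 0 that were called. Cald1 had no listed relative and is not shown.

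Other genes of the smooth muscle apparatus were called about as often as genes in general. Of 21 such genes in the table, 20 were tested, 1 was called higher and 0 lower, with a median log2 fold change of 0.11, where 6.42% of all tested genes were called. For 7 of the 20 both dCKO libraries were above all controls and for 0 both were below, where 19% and 18.6% of all tested genes were so placed. At an unadjusted p below 0.05 were 5 of the 20, where 21.5% of all tested genes reached that value. The called gene was Tgfb1i1, which encodes Hic-5, a focal adhesion protein of smooth muscle and fibroblasts. It measured 11.4, 18.9 and 16.2 CPM in control and 23.9 and 26.5 CPM in dCKO libraries (0.70 on the log2 scale, SE 0.20, edgeR adjusted p = 0.0449). Its call was lost with DESeq2 (adjusted p = 0.0506), with total-count scaling (edgeR adjusted p = 0.0683), after removal of the GC trend (0.0528), and on omission of control replicate 1 or of one of the dCKO libraries (largest adjusted p 0.235). The abundant adhesion and filament genes Flna, Actn1 and Zyx were not called, at 786.9 to 1088, 320.8 to 357.5 and 112.5 to 129.2 CPM in control and 1074 to 1258, 305.8 to 323.7 and 136.1 to 156.1 CPM in dCKO libraries. Des, the muscle intermediate filament gene, measured 40.1, 35.4 and 18.2 CPM in control and 29.5 and 38.1 CPM in dCKO libraries. Mylk, the myosin light chain kinase gene, measured 11.7, 11.9 and 12.99 CPM in control and 13.03 and 16.6 CPM in dCKO libraries, with both dCKO libraries above all controls. Lmod1, an actin nucleator of smooth muscle, measured 1.05, 0.947 and 0.611 CPM in control and 1.76 and 1.46 CPM in dCKO libraries, and Ppp1r14a, which encodes an inhibitor of myosin phosphatase, 2.89, 2.57 and 2.29 CPM in control and 4.25 and 3.52 CPM in dCKO libraries. Both were higher in each dCKO library than in each control without passing the test. Synpo2 of the same list went the other way, at 16.6, 16.2 and 9.47 CPM in control and 6.84 and 9.96 CPM in dCKO libraries. Its groups overlapped, and it was not called (log2 fold change −0.74, SE 0.27, edgeR adjusted p = 0.104), though it was when no filter on low counts was applied. Kcnmb1, a potassium channel subunit gene of smooth muscle, had 0 counts in all controls and 4 and 3 in the dCKO libraries and was not tested.

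Among 18 listed regulators in the table, 16 were tested, 2 were called higher and 1 lower (median log2 fold change 0.09). Of all tested genes 5% were called higher and 1.42% lower. Srf measured 111, 120.4 and 138.6 CPM in control and 147.9 and 147.3 CPM in dCKO libraries and was not called (a difference of 0.26 on the log2 scale, SE 0.13, edgeR adjusted p = 0.238). The myocardin-related factors Mkl1 and Mkl2 had log2 fold changes of 0.09 and −0.12 and were not called, and Myocd, the gene of myocardin itself, gave at most 0.947 CPM in any library and was not tested. Srf, Mkl1 and Mkl2 were thus detected in all 5 libraries, and Myocd in 4. Tgfb1, a growth factor that induces Acta2 and Tagln in many cells and is carried by platelets, rose from 16.8, 19.5 and 13.4 to 39.4 and 48.0 CPM (log2 fold change 1.395, SE 0.18, edgeR adjusted p = 1.90e-05). Foxc1, a forkhead factor of mesenchyme around vessels and in the arches, fell by 1.503 on the log2 scale (SE 0.20, edgeR adjusted p = 4.12e-05). Tead3, which encodes a DNA-binding partner of YAP and TAZ, rose by 0.52 (SE 0.15, edgeR adjusted p = 0.0408), a call lost when control replicate 1, control replicate 2 or one of the dCKO libraries was omitted (largest adjusted p 0.298), after the GC trend was removed (0.16) and with total-count scaling (0.0682).

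Blood cell markers differed between the groups alongside the members that rose. Tagln, Acta2 and Myl9 were each higher in dCKO replicate 2 than in replicate 1, by ratios of 1.83, 1.6 and 1.5. Tpm1, Tpm2, Cnn2 and Cald1 had ratios of 0.923, 0.910, 0.983 and 1.08. Myh11, Cnn1 and Actg2, with few counts, had ratios of 2.9, 1.66 and 1.24. Each such ratio compares single libraries. The 10 megakaryocyte and platelet markers summed to 15.6, 25.8 and 17.1 CPM in control replicates 1, 2 and 3 and to 139.2 and 271.6 CPM in dCKO replicates 1 and 2, a ratio of 1.95 between the dCKO libraries. All 9 tested markers of this list were called higher (median log2 fold change 3.34), where 5% of all tested genes were. Among them were Itga2b, Itgb3, Pf4, Gp9, Ppbp and Gp5, and no marker of the list was at 0 in all controls. The 8 erythroid markers were also all called higher (median log2 fold change 4.11), among them the globin genes Hbb-bh1, Hba-x and Hbb-y, and Slc4a1 and Alas2. The erythroid sum was lower in dCKO replicate 2 than in replicate 1, at a ratio of 0.696. The myeloid markers summed to 14.2 to 15.6 CPM in control and 24.9 and 38.4 CPM in dCKO libraries, with Laptm5 the 1 called of 6 tested, and a ratio of 1.55. Their part in the rise of Tagln, Acta2 and Myl9 was not tested.

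Markers of vessel cells and of other muscle were read against the 6.42% of all tested genes that were called, and nothing is drawn from counts over lists this short. Of 8 endothelial markers 1 was called higher, Cldn5, at a log2 fold change of 0.64 (edgeR adjusted p = 0.0428), and the summed level was 251.2 to 282.6 CPM in control and 276.4 and 318.5 CPM in dCKO libraries. Of 9 pericyte and mural cell markers, 7 were tested and 0 called by edgeR, DESeq2 or limma-voom, 2 reached an unadjusted p below 0.05, and the sums were 202.4 to 227.9 CPM in control and 214.8 and 233.9 CPM in dCKO libraries. Kcnj8 of that list was at 0 in all controls. Cardiac and skeletal muscle genes, which matter because heart muscle of this stage also expresses Acta2 and Tagln, summed to 100.4, 35.8 and 36.8 CPM in control replicates 1, 2 and 3 and to 49.5 and 50.5 CPM in the dCKO libraries. Of 20 such genes 12 were tested, Myl6b was called higher (log2 fold change 0.98, edgeR adjusted p = 0.0442, but up to 0.286 on omission of control replicate 1, control replicate 2 or one of the dCKO libraries) and Myl2, the ventricular light chain gene, lower. Myl2 measured 28.5 CPM in control replicate 1, 0.676 and 2.90 in the other controls and 1.39 and 1.07 CPM in the dCKO libraries, and without control replicate 1 its log2 fold change was −0.51 (edgeR adjusted p = 0.789). Control replicate 1, the highest in heart genes, was also the highest control for Acta2 (3.29 CPM against 2.84 and 3.21) and Tagln (2.37 CPM against 1.62 and 1.68). These values rest on 25, 21 and 21 counts of Acta2 and 18, 12 and 11 counts of Tagln. The order of the controls is therefore uncertain. Of 8 epithelial markers Krt19, Krt8 and Krt18 were called higher (sums 302 to 393.5 CPM in control, 461.5 and 481 CPM in dCKO tissue). Of 10 tested immediate early genes Egr1 and Dusp1 were called higher (201.7 to 229.8 CPM and 268.8 and 291.7 CPM). Both dCKO libraries were above all controls for 6 of these 8 markers and 9 of these 10 genes, and below for 0. Of all tested genes 19% were so placed above and 18.6% below. An unadjusted edgeR p below 0.05 was reached by 6 of the 8 and 7 of the 10, where 21.5% of all tested genes reached it. Of 9 arch mesenchyme markers Dlx6, Dlx5 and Prrx1 were called lower and Alx4 higher. The part of these lists in the contractile gene values was not tested.

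**Figure D5:**
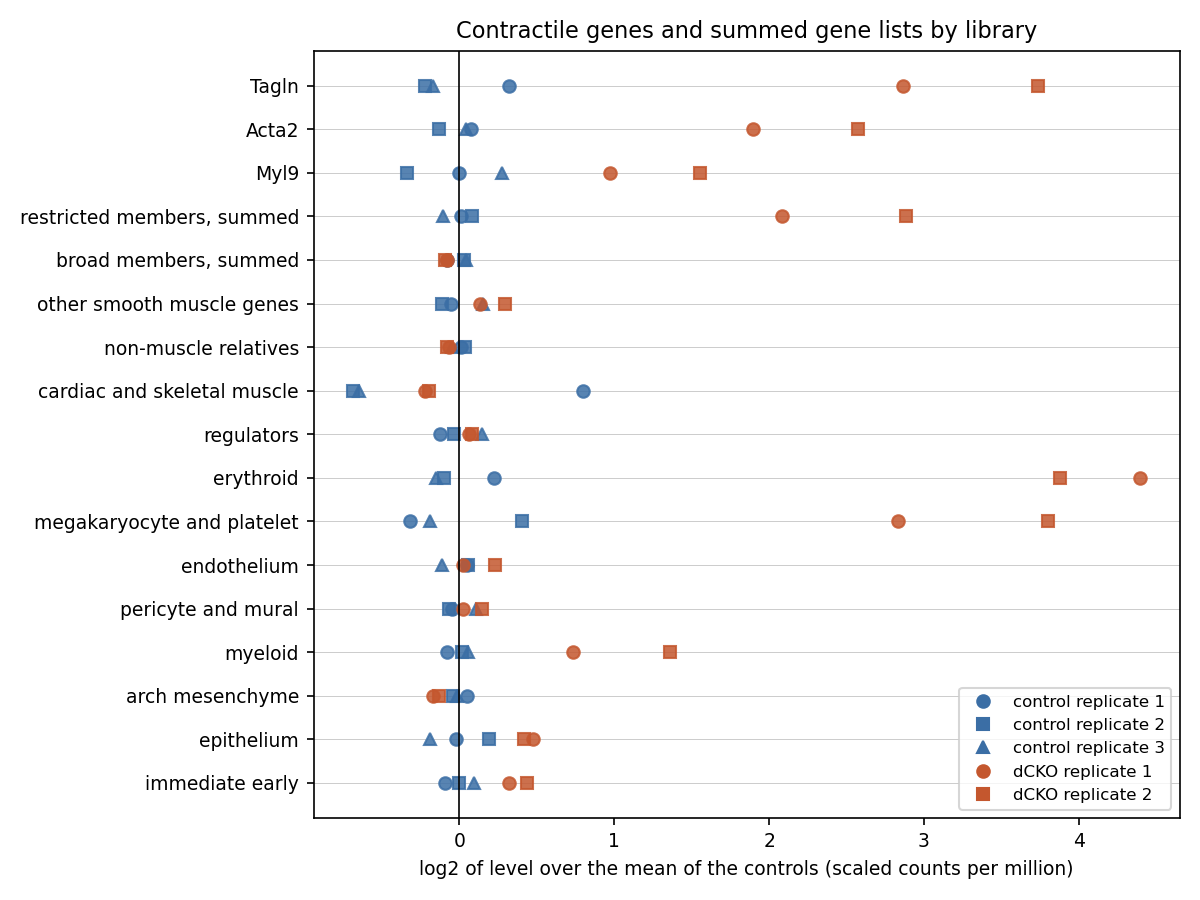
Log2 of each library's level over the control mean, for Tagln, Acta2 and Myl9 singly and for summed gene lists; blue are controls and orange are dCKO libraries, with symbols for the replicate. In dCKO replicates 1 and 2 Tagln stood at 2.87 and 3.74, Acta2 at 1.89 and 2.57 and Myl9 at 0.97 and 1.56. The restricted members stood at 2.08 and 2.89 and the broadly expressed members at −0.08 and −0.09. The megakaryocyte and platelet sum stood at 2.83 and 3.80 and the erythroid sum at 4.397 and 3.875.

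The genes whose profiles over the 5 libraries were most like those of the called members were listed by the root mean square distance between log2 CPM profiles, each centred on its mean, among 10747 genes averaging at least 5 CPM. For Acta2 they were Vwf, Ano1 and Adcy7, at distances of 0.152, 0.177 and 0.235. Vwf measured 4.07, 4.06 and 3.36 CPM in control and 11.8 and 21.5 CPM in dCKO libraries. For Tagln they were Hsd3b6, Zc3hav1 and Itgb3 at 0.136, 0.266 and 0.307, and Itgb3, an integrin chain, is on the platelet marker list. Hsd3b6 measured 1.71, 1.35 and 1.07 CPM in control and 9.335 and 21.67 CPM in dCKO libraries. For Myl9 they were Plekha2, Nup210 and Lrrc4b at 0.136, 0.169 and 0.194, and for Cald1 Ccne2, Cbfb and Ptbp2 at 0.019, 0.026 and 0.026. Plekha2 measured 3.94, 2.57 and 4.28 CPM in control and 6.01 and 9.725 CPM in dCKO libraries. Ccne2 measured 49.01, 49.37 and 39.87 CPM in control and 30.13 and 32.54 CPM in dCKO libraries.

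The authors' deposited table of their own comparison gave the same 4 contractile genes an adjusted p below 0.05. In the authors' deposited table Tagln had a fold of 9.80 (adjusted p = 3.64e-04), Acta2 4.74 (2.30e-04), Myl9 2.48 (0.0106) and Cald1 0.704 (0.0153). For the low members, the authors' deposited table lists a fold of 2.57 for Cnn1, 1.52 for Myh11 and 0.454 for Actg2, each with an adjusted p of 1. The means in the authors' deposited table are reproduced, for 18606 genes, by the deposited counts with 1 count added to every gene in every library before scaling, which draws folds of genes with few counts towards 1. For Cnn1 the fold without the added count was 5.41 from pooled counts.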

How the data were processed

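Poly(A) RNA of mandibular tissue was measured in 3 control and 2 dCKO libraries made, per the labels' protocols, by the Ion Total RNA-Seq v2 protocol. Raw counts per gene symbol were what the authors deposited. The build mm9 and the tools DESeq 1.16.0 and HTSeq 0.5.4p3 are listed per the submitters' processing notes. No source used here gives the aligner, annotation or use of strand. The authors' deposited comparison table holds, per the file headers, mean normalized signal, its ratio (fold change), the log2 of that ratio, and p-values. Count columns headed WT were matched to the control titles on the replicate number. The table has 27 symbols turned into dates, none used here.

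Counts were analysed in R 4.3.3 with edgeR 4.0.16: filterByExpr (minimum count 10, minimum total 15), TMM scaling, and the two-sided quasi-likelihood F test, with p-values adjusted by Benjamini-Hochberg across the tested genes (threshold 0.05). Standard errors equal the size of a log2 fold change divided by the root of its F, and 95% intervals use the test's degrees of freedom. The test was checked on simulated data. Lengths, overlaps and GC content came from GENCODE M21 (GRCm38), and promoters from RefSeq GRCm38.p6, another build than mm9. The nearest profiles used a pseudocount of 0.5 CPM.

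Alternatives were RLE and total-count scaling, DESeq2 1.42.0, limma-voom (limma 3.58.1), no filter, a mean of 5 CPM with 1 CPM in 2 libraries as a stricter filter, leaving out each library, the replicate number as a block, and removal of each library's GC trend (GC known for 99.3% of tested genes). The members and lists were chosen with earlier results of these data known. Genes named were the 10 members, Yap1 and Wwtr1 and, of each list, up to 6 called genes with the smallest p. Also named were up to 3 abundant uncalled relatives and smooth muscle genes, and the 3 nearest profiles of each called member. Of these profiles the text prints values of the nearest only. A gene that this rule would name is not reported here. Outside this rule, chosen with their values seen, were Pcsk7, Myl12a, Des, Mylk, Lmod1, Ppp1r14a, Kcnmb1, Srf, Mkl1, Mkl2, Myocd, Kcnj8, Twist1, Msx1 and Hand2. Synpo2, also chosen with its values seen, and Gm48529, which has no row in the count table, were outside it too. Replicates of a group differed beyond counting error (a chi-square of 4.43 to 14.1 per gene), and all 5 were kept.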

Additional observations from a re-analysis of the deposited data

How the results depend on the processing

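Across 102 recomputed log2 fold changes of the 8 tested contractile genes, 94 kept their direction and side of the threshold. Tagln, Acta2 and Myl9 were called in every setting run, with log2 fold changes of 2.85 to 3.73, 1.89 to 2.58 and 0.98 to 1.57 when single libraries were left out. The 5 reversals were of genes that were not called, Myh11, Tpm2 and Cnn2. Myh11 stood at −0.214 without dCKO replicate 2, in a leave-one-out range up to 1.304, and at 1.567 with limma-voom. This range covers 4 omissions, because Myh11 did not pass the filter without control replicate 2, which held most of its control counts. With the stricter filter Myh11 was not tested either. Tpm2 stood at −0.005 without control replicate 1 (up to 0.188) and −0.047 with the GC trend removed. Cnn2 stood at 0.152 without control replicate 3 (down to −0.144) and 0.162 with the replicate block. With single libraries left out, calls ranged from 442 to 1637 genes, 403 to 950 higher and 39 to 687 lower (816, 636 and 180 with all libraries). The same settings gave 3 to 4 contractile genes, 0 to 1 of them lower, 1 to 2 broadly expressed members, 0 to 4 other smooth muscle genes, 1 to 5 non-muscle relatives, 0 to 2 cardiac and skeletal muscle genes and 2 to 3 regulators. With 1 dCKO library left, the fit assumes that it varies as the controls do. Genes called lower numbered 469 with total-count scaling and 305 with no filter. Other smooth muscle genes called numbered 0 with total-count scaling, DESeq2 or the GC trend removed, and 4 with no filter. Non-muscle relatives numbered 3 with the GC trend removed, and cardiac and skeletal genes 0 with DESeq2 or the GC trend removed and 1 with total-count scaling, limma-voom or the stricter filter. With the replicate number as a block, 2121 genes were called (1200 higher, 921 lower), with 5 other smooth muscle genes and 5 regulators. The same 4 contractile genes were called. No label says whether same-numbered libraries were paired. Their deviations from the group means correlated at 0.084 and −0.004 across genes. The deviations of the dCKO libraries mirror each other, as in any group of 2, so these values cannot settle whether there was pairing. Control replicate 3 is alone in its block, so it adds nothing to the difference between groups in that fit, much as on its omission. Both reversals of Cnn2 thus came from fits in which this library does not enter the difference. Causes of the other shifts were not tested. Cnn1, Actg2 and Myh11 rest on few counts, 3 counts corresponding to 0.23 to 0.458 CPM, and for Cnn1 and Myh11 the spread between libraries adds to the error.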
